A study of Mus musculus with 6 samples.

Results

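The genes described here encode the subunits of the proteasome, its activators and the factors that assemble it. They were chosen by name: every gene symbol on the array that begins with Psm, a letter from a to g and a digit, other than the inducible subunits Psmb8, Psmb9 and Psmb10. That gave 47 of the 19505 genes measured, each with 1 probe set. Of these, 15 belong to the 20S core (8 Psma and 7 Psmb genes), 20 to the 19S cap (6 Psmc and 14 Psmd genes) and 10 are activators, an inhibitor or assembly chaperones (Psme, Psmf and Psmg). The remaining 2, Psmc3ip and Psme3ip1, fit the name but encode no subunit and are given apart. The catalytic subunit Psmb5 has no probe set under its name in the annotation used and was not analysed here.

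Expression was measured with single-colour oligonucleotide arrays in the mouse melanoma line B16F10 after 48 h in medium alone (control, 0 µM) or in medium with 2.5 µM or 40 µM of the compound named SQ-diEG in the series title and di-sq in the sample labels. Each of the 3 groups had 2 arrays from the same line. The labels do not say whether a group's arrays come from different cultures. The p-values therefore reflect the spread among these 6 samples, and that spread may be technical. The descriptions of 3 samples name another treatment and that of a 2.5 µM sample names medium, so groups were taken from titles and treatment fields.

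The proteasome degrades proteins that carry ubiquitin chains. The 20S core is a barrel of alpha rings, which form the gate, around beta rings, which hold the protease sites. The 19S cap sits on its end, where a base with an ATPase ring unfolds the substrate and a lid removes the ubiquitin. The subunits are built in fixed ratios, and when proteasome activity is low the transcription factor NRF1 (Nfe2l1) is known to raise their genes together. Expression of each gene is given as the deposited log2 value, so a difference of 1 is a doubling of signal on that scale.

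All 7 melanoma markers examined (Tyr, Tyrp1, Dct, Pmel, Mlana, Mitf and Sox10) had mean levels between 12.76 and 19.01, and the 13 markers of fibroblasts, keratinocytes, leukocytes and endothelium lay between 3.35 and 5.66, under 9.94, the level that 95% of negative control features did not exceed (mean of the 6 arrays). Replicate 1 at 2.5 µM and replicate 1 at 40 µM differed from the other 4 arrays in array-wide measures. Their hybridisation controls averaged 10.4 and 10.3 where the others had 10.8 to 11.2, and their poly-A controls 5.65 and 5.63 where the others had 6.35 to 7.42. The values of their genes were more spread out, with interquartile ranges of 5.20 at 2.5 µM and 5.43 at 40 µM, where the others had 4.90 to 4.94. These 2 arrays are called the low-control arrays below, and results are given with and without them. Among the others, 40 µM replicate 2 had the highest hybridisation and poly-A controls (11.2 and 7.42). The arrays of the control group had poly-A controls of 6.35 and 6.39.

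Proteasome genes stood higher than in control on these low-control arrays at both doses, most of all those of the 20S core, and lay near control on the other treated arrays. The median log2 difference from the control mean over the 47 genes was 0.97 on replicate 1 at 40 µM and 0.54 at 2.5 µM, but 0.003 on replicate 2 at 40 µM and 0.09 at 2.5 µM. Over all genes the same medians were -0.04, 0.00, -0.01 and 0.01, and over the 4147 genes with a mean level of at least 9.94 they were 0.08, 0.08, -0.01 and 0.03. For the 20S core the medians were 1.82, 1.07, -0.02 and 0.16, and for the 19S cap 0.58, 0.30, 0.01 and 0.02. The core median thus exceeded the cap median by 1.25 and 0.77 on the low-control arrays of the higher and lower dose, and differed from it by -0.03 and 0.14 on the corresponding replicate 2 arrays. Activators, inhibitor and chaperones had medians of 0.62, 0.54, 0.06 and 0.03. The array controls move with this pattern, and their part in it was not tested.

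**Figure D1:**
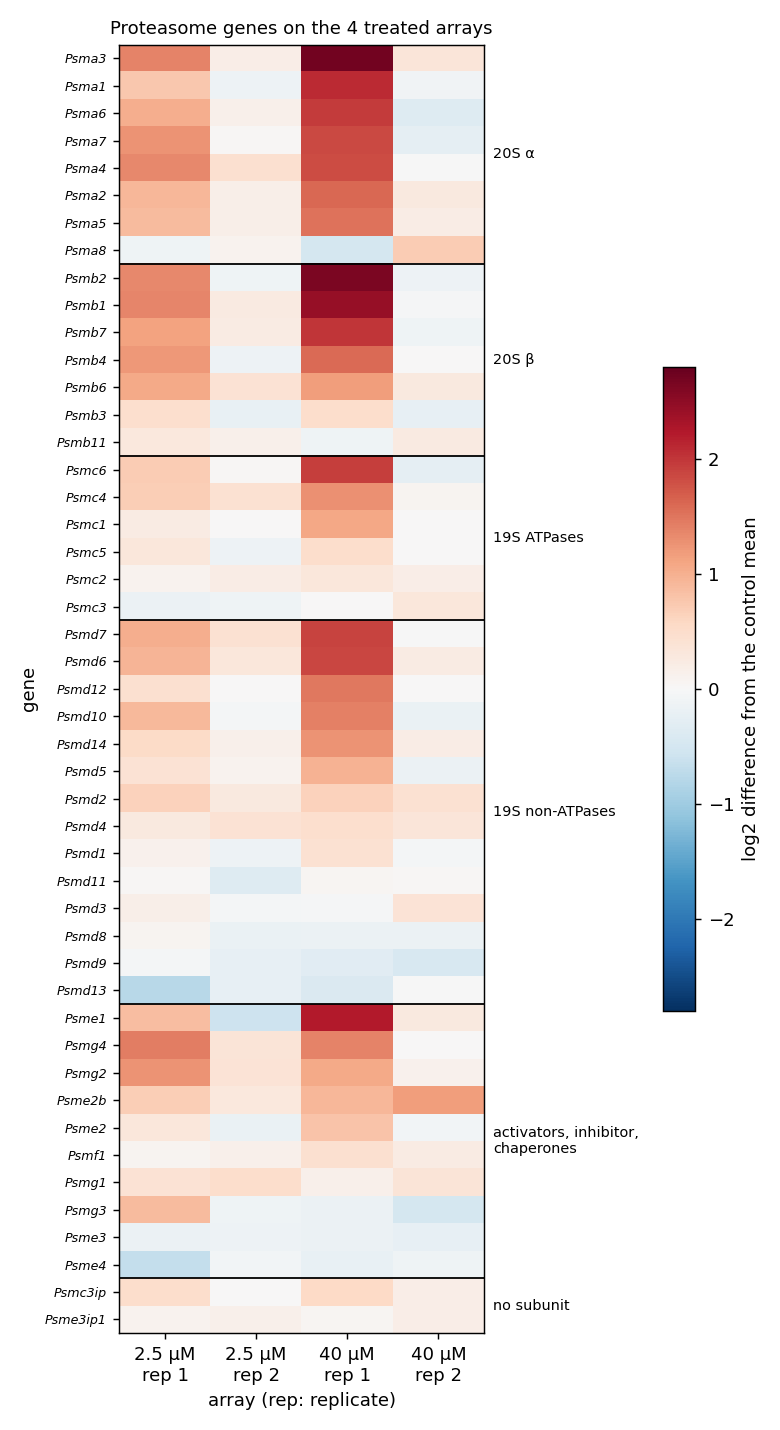
Heat map of the log2 difference from the control mean (colour) for the 47 genes (rows, grouped by part of the particle and ordered by 40 µM replicate 1) on the 4 treated arrays (columns; rep, replicate). The replicate 1 columns are mostly red, with the highest value, 2.71, for Psma3 at 40 µM, and the replicate 2 columns are pale apart from Psme2b and Psma8.

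On 40 µM replicate 1, 29 of the 47 genes were at least 0.5 above the control mean, where 18.7% of all genes were, and on 2.5 µM replicate 1 it was 24 of 47, where 13.8% of all genes were. On 40 µM replicate 2 only Psma8 and Psme2b, 2 of 47, were that far above control (9.38% of all genes), and on 2.5 µM replicate 2 none of the 47 was (10.1% of all genes). Taking only genes with a mean level of at least 9.94, 20 of 33 proteasome genes passed this step on 40 µM replicate 1 against 27.4% of all such genes, and 17 of 33 on 2.5 µM replicate 1 against 17.2%. Between the low-control arrays themselves, 18 of 47 were at least 0.5 higher at 40 µM than at 2.5 µM (13.8% of all genes), 9 of them in the core, and 37 of 47 were higher by any amount, where 9735 of all 19505 genes were. The interquartile range over genes also differed between these 2 arrays (5.43 at 40 µM and 5.20 at 2.5 µM), and its part in these counts was not tested. Between the replicate 2 arrays 3 of 47 were at least 0.5 higher at 40 µM (10.9% of all genes), namely Psma8, Psme1 and Psme2b. By any amount, 22 of 47 were higher there, where 9451 of all 19505 genes were. The controls were close together for these genes, with a median SD of 0.0636 (0.0875 over all genes), while at 2.5 µM and 40 µM the median SD was 0.358 and 0.658 (0.192 and 0.259 over all genes), so the spread within a treated group was as large as the differences.

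**Figure D2:**
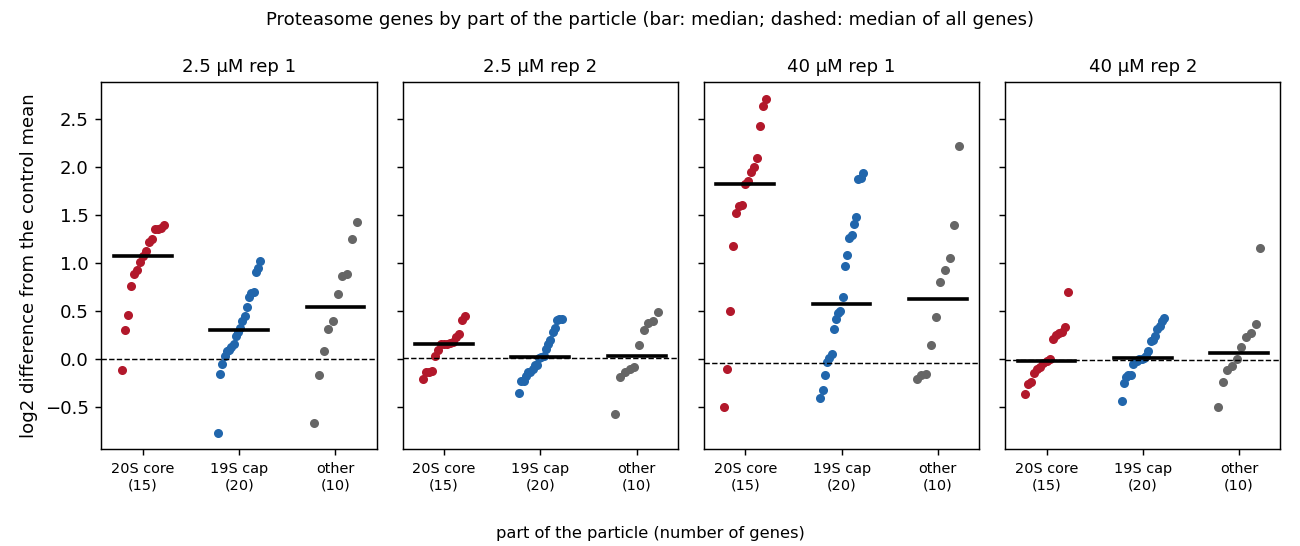
Log2 difference from the control mean (y axis) for each gene (points) of the 20S core, the 19S cap and the other factors (x axis), with 1 panel for each treated array, a bar at the median of the part and a dashed line at the median of all genes. The core bar stands at 1.82 and 1.07 on the replicate 1 arrays and at -0.02 and 0.16 on the replicate 2 arrays.

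No proteasome gene passed in any comparison (limma, two-sided, Benjamini-Hochberg adjustment over all genes, threshold 0.05), nor did any other gene (0% of 19505 in each of the 3 comparisons). For 40 µM against control, 2 of 47 were higher at an unadjusted p under 0.05 (5.18% of all genes) and 0 lower (6.86% of all genes), and the smallest adjusted p was 0.334. For 2.5 µM against control, 0 were higher (4.24% of all genes) and 0 lower (5.38%), and for 40 µM against 2.5 µM, 0 were higher (2.34%) and 0 lower (3.28%), with smallest adjusted p of 0.518 and 0.854. The median log2 change over the 47 was 0.54, 0.34 and 0.20 in these 3 comparisons, against -0.01, 0.01 and -0.003 over all genes. Comparisons that share the control arrays are not independent of each other. Without 40 µM replicate 2, 19 of the 47 passed against control, all higher (10 of the core, 8 of the cap and Psme1), among 2235 genes in all. That fit has a single 40 µM array and takes its spread from the remaining groups. Without 40 µM replicate 1, none passed and the median was 0.00. With the low-control arrays as a block, the median for 2.5 µM against control turned to -0.07.

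Many proteasome genes did not overlap control. Both 40 µM arrays lay above both controls for 18 of 47 genes (38.3%, against 22.2% of all genes) and below them for 4 (26.3% of all genes). At 2.5 µM, 23 of 47 lay above both controls (48.9%, against 27.1% of all genes) and 3 below (25.9%). Between doses, 3 lay higher at 40 µM on both arrays (12.4% of all genes) and 3 lower (16.3%). All 4 treated arrays lay above both controls for 15 of 47 genes, where 2540 of all 19505 genes did, and below them for 1, Psme3, where 14.8% did. Of the 15, those with the widest gap were Psme2b, Psmd2, Psmd4, Psmb6, Psmd6 and Psma3, whose lowest treated array was 0.30, 0.28, 0.25, 0.24, 0.21 and 0.13 above the higher control.

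In the alpha rings, whose subunits close and open the entrance to the core, 7 of 8 genes stood between 1.52 and 2.71 above control on 40 µM replicate 1 and between 0.76 and 1.40 on 2.5 µM replicate 1. At the step of 0.5, 7 of 8 passed on each of these arrays, where 18.7% and 13.8% of all genes did. Psma3 lay at 9.30 and 9.41 in control, 10.75 and 9.54 at 2.5 µM, and 12.06 and 9.69 at 40 µM (replicates 1 and 2). All of its treated arrays were above both controls, but the replicate 2 arrays by little, and the group mean of 10.87 ± 1.68 at 40 µM against 9.35 ± 0.07 in control (SD, n = 2) differed by 1.52 (log2; standard error 0.73; limma, adjusted p = 0.441). Its control level is under 9.94, so this difference starts from a signal within that of the negative controls. Psma1 was at 10.24 and 10.19 in control, 10.98 and 10.08 at 2.5 µM, and 12.30 and 10.13 at 40 µM. Its replicate 2 arrays lay just below both controls. Psma6 had 10.61 and 10.52, then 11.57 and 10.72, then 12.52 and 10.20, so that 40 µM held both its highest and its lowest array. Psma4 was at 12.39 and 12.47, 13.78 and 12.88, and 14.26 and 12.41, above control on both arrays at 2.5 µM and on replicate 1 only at 40 µM. Psma2, Psma5 and Psma7 also had their highest array at 40 µM replicate 1, between 1.52 and 1.85 over control, where replicate 2 had 0.28, 0.21 and -0.26. The 1 exception was Psma8, the alternative alpha subunit of male germ cells, which lay between 3.44 and 4.64 on the 6 arrays, below the medians of the negative controls (5.98 to 6.10).

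The beta rings carry the protease sites, and 5 of the 7 beta genes stood at least 0.5 above control on 40 µM replicate 1 (18.7% of all genes). On 2.5 µM replicate 1 it was also 5 of 7 (13.8% of all genes). Psmb3, at 0.50 after rounding on 40 µM replicate 1, just missed that step. Psmb7, the trypsin-like subunit, lay at 12.33 and 12.18 in control, 13.39 and 12.48 at 2.5 µM, and 14.26 and 12.15 at 40 µM. Its 40 µM replicate 2 array lay just below both controls, and the change of 0.95 had a standard error of 0.63 (limma, adjusted p = 0.548). Psmb6, the caspase-like subunit, was at 11.37 and 11.44 in control, 12.47 and 11.81 at 2.5 µM, and 12.59 and 11.68 at 40 µM. Its 4 treated arrays were all above control and the doses were alike, with changes of 0.73 and 0.74 at 40 µM and 2.5 µM (standard error 0.34 for each; limma, adjusted p = 0.440 and 0.541) and a 40 µM minus 2.5 µM difference of -0.01 with the same standard error. Among the structural beta subunits, Psmb2 was at 8.73 and 8.74, 10.09 and 8.60, and 11.38 and 8.59, which put the replicate 2 arrays of both doses just below control and gave it the widest 40 µM spread of the family (SD 1.97, n = 2), from controls under 9.94. Psmb1 was at 12.18 and 12.21, 13.57 and 12.45, and 14.62 and 12.15, and Psmb4 at 11.26 and 11.40, 12.55 and 11.18, and 12.92 and 11.32. Psmb3 differed least of the broadly expressed core genes, at 10.81 and 10.73, 11.23 and 10.56, and 11.27 and 10.53. Its replicate 1 arrays lay about 0.5 above control (0.46 and 0.50) and its replicate 2 arrays below (-0.21 and -0.24). Psmb11, the subunit of the thymic cortex, lay between 3.73 and 4.25 on all arrays, below the negative control medians.

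**Figure D3:**
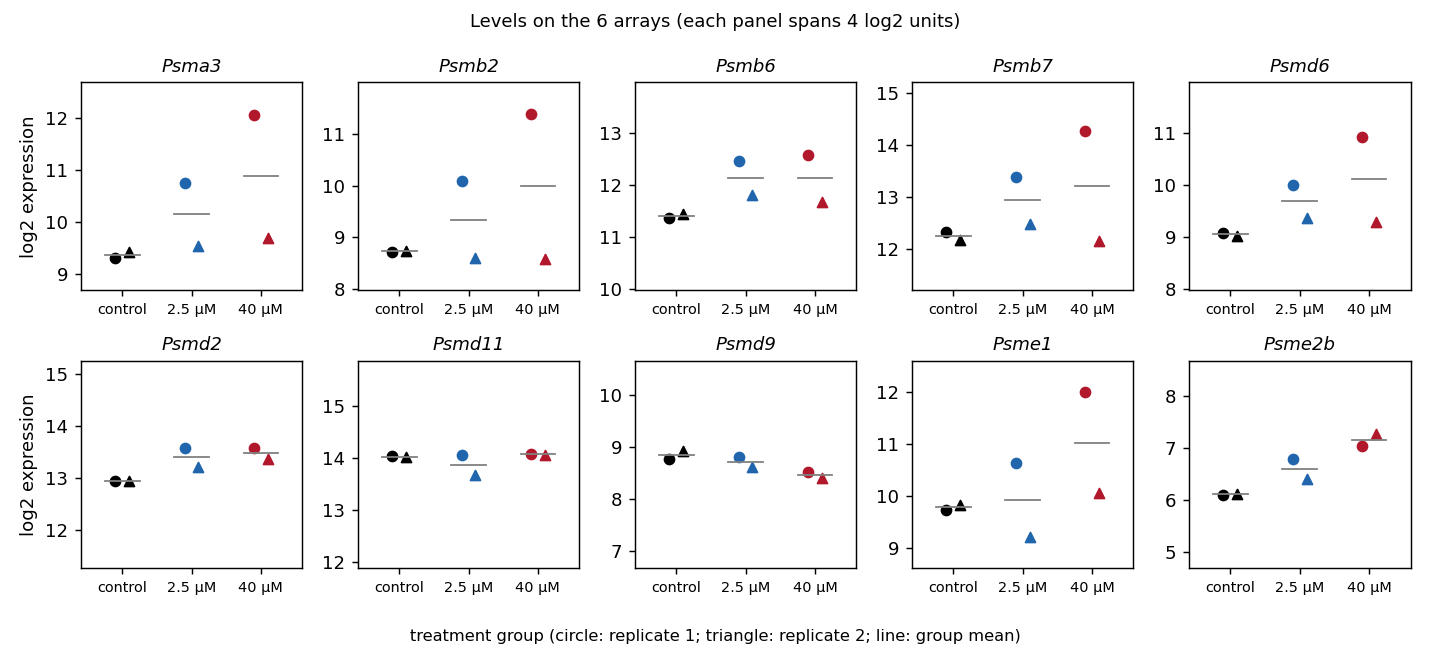
Log2 expression (y axis) of 10 genes in control, 2.5 µM and 40 µM (x axis), with circles for replicate 1, triangles for replicate 2 and a line at each group mean. Every panel has the same height. Psma3, Psmb2, Psmb7, Psmd6 and Psme1 have their highest point at 40 µM replicate 1, Psmd2 and Psmb6 have all treated points above control, Psmd11 stays between 13.67 and 14.08, and Psmd9 lies below both controls at 40 µM.

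The 6 ATPases of the cap, which form the ring that unfolds substrates, ranged on 40 µM replicate 1 from 0.01 above control (Psmc3) to 1.94 (Psmc6). Psmc6 lay at 10.42 and 10.51 in control, 0.70 and 0.03 above the control mean at 2.5 µM, and 12.40 and 10.22 at 40 µM, high on the low-control arrays alone. Psmc4 was at 11.24 and 11.15, 11.88 and 11.61, and 12.49 and 11.27, above both controls on all 4 treated arrays. Psmc3 was at 13.39 and 13.54, 13.31 and 13.36, and 13.48 and 13.77, with overlap between control and 40 µM. Psmc2 was at 13.73 and 13.76, 13.83 and 13.94, and 14.05 and 13.93, no more than 0.31 from the control mean on any array. Psmc1 and Psmc5 lay between, with 1.08 and 0.50 on the first 40 µM array and 0.00 and 0.01 on the other.

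The lid, which cuts ubiquitin from substrates, divided into 4 genes that stood high on 40 µM replicate 1 and 4 that were near control or lower. Psmd6, Psmd7, Psmd12 and Psmd14, the last being the deubiquitinase itself, had differences of 1.88, 1.89, 1.48 and 1.26 there. Psmd3, Psmd8, Psmd11 and Psmd13 had -0.03, -0.17, 0.05 and -0.41. On 2.5 µM replicate 1 the first 4 had 0.95, 1.02, 0.45 and 0.54, and the others 0.16, 0.08, 0.03 and -0.77. The control means of the first 4 were 9.05, 12.77, 10.99 and 10.39 and those of the others lay between 13.26 and 14.73. The 4 lid genes that were not above control by 0.5 were thus those whose probe sets had the higher signal. Of these, Psmd13 was the lowest against control on 40 µM replicate 1. Psmd8 lay below both controls (14.72 and 14.74) on both 40 µM arrays (14.57 and 14.56). Psmd6 lay at 9.08 and 9.02 in control, 0.95 and 0.32 above their mean at 2.5 µM, and at 10.93 and 9.29 at 40 µM. All 4 treated arrays were above control (log2 change at 40 µM 1.06, standard error 0.50; limma, adjusted p = 0.440), and the controls were under 9.94. Psmd7 was at 12.74 and 12.80, 13.79 and 13.19, and 14.66 and 12.75, with 40 µM replicate 2 within the control range. Psmd13 lay at 13.31 and 13.21, 12.49 and 13.03, and 12.84 and 13.24, and both of its 2.5 µM arrays were below both controls (log2 change -0.50, standard error 0.24; limma, adjusted p = 0.550).

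Among the base subunits that are no ATPases, Psmd2 and Psmd4 differed from control by small amounts on all 4 treated arrays. Psmd2, the scaffold that docks ubiquitin shuttle factors, was at 12.93 on both controls, 13.58 and 13.21 at 2.5 µM, and 13.58 and 13.36 at 40 µM. Its mean of 13.47 ± 0.16 at 40 µM (SD, n = 2) was 1.45-fold above control, or 0.54 in log2 (standard error 0.20), with a 95% confidence interval from 0.07 to 1.01 (limma, unadjusted p = 0.029, adjusted p = 0.382). At 2.5 µM its change was 0.47. Psmd4, a receptor for ubiquitin chains, was at 12.19 and 12.13, 12.45 and 12.57, and 12.64 and 12.50, changes of 0.41 and 0.35 at 40 µM and 2.5 µM with a standard error of 0.17 (limma, adjusted p = 0.416 and 0.564). On 40 µM replicate 2 Psmd2 was 0.43 and Psmd4 0.34 above control, where the core median was -0.02. Some core genes were above control there too, such as Psma3 (0.33) and Psmb6 (0.27). Psmd2 was still higher on replicate 1 than on replicate 2 at both doses, and Psmd4 at 40 µM only. Psmd1, the other scaffold of the base, differed from control by 0.42 and -0.05 on the 40 µM arrays. The 3 factors Psmd5, Psmd9 and Psmd10 help to assemble the base and leave the finished cap. Of these Psmd9 lay at 8.77 and 8.91 in control, 8.79 and 8.61 at 2.5 µM, and 8.52 and 8.40 at 40 µM. Both of its 40 µM arrays were below both controls, but 2.5 µM replicate 1, at 8.79, was not (log2 change at 40 µM -0.38, standard error 0.20; limma, adjusted p = 0.473). Psmd10 (gankyrin) and Psmd5 stood 1.41 and 0.97 above control on the first 40 µM array and at -0.19 and -0.17 on the other. All 3 had control means below 9.94.

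**Figure D4:**
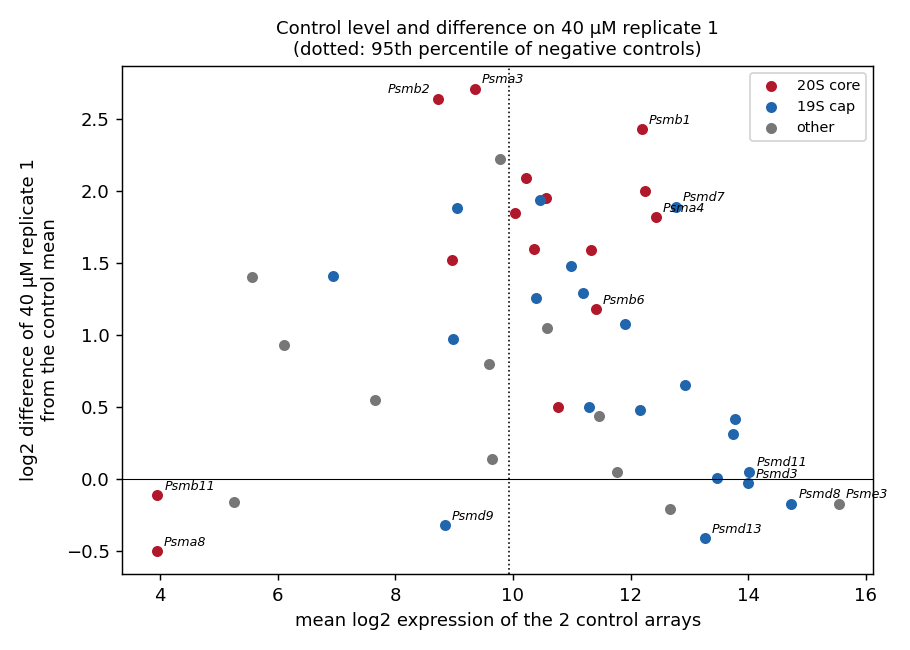
Mean log2 expression of the 2 control arrays (x axis) and log2 difference of 40 µM replicate 1 from the control mean (y axis) for the 15 core genes (red), 20 cap genes (blue) and the 12 others (grey), with a dotted line at 9.94, the upper level of the negative controls. The 8 genes at a control level of 13 or more lie between -0.41 and 0.42, and the core genes, other than Psma8 and Psmb11 at the far left, between 0.50 and 2.71.

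Signal and difference were also set side by side beyond the lid (the signal of different probe sets does not rank the genes by abundance), in bins whose edges were chosen after the values were seen. The 8 proteasome genes with a control mean of at least 13 had a median difference of -0.01 on 40 µM replicate 1, the 7 between 12 and 13 had 1.82, the 16 between 9.94 and 12 had 1.28 and the 16 below 9.94 had 0.95. Over all genes in the same bins the medians were -0.10, 0.03, 0.13 and -0.07. With the upper edge at 14 the 12 genes between 12 and 14 had a median of 0.45 and the 3 above it -0.17, so the value of the bin above 12 depends on the edge. The bins of proteasome genes are small. The highest control mean of a core gene was 12.43, and cap genes with more signal than that have no core gene to be compared with.

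The activators open the gate of the core in place of the cap. Psme1 and Psme2 encode the subunits of the interferon-inducible activator PA28, and they differed in size. Psme1 lay at 9.73 and 9.83 in control, 10.64 and 9.21 at 2.5 µM, and 2.22 and 0.27 above the control mean at 40 µM. Both 40 µM arrays were above control while 2.5 µM had 1 array above and 1 below (log2 change at 40 µM 1.24, standard error 0.67; limma, adjusted p = 0.470), and its controls too were under 9.94. Psme2 was at 9.53 and 9.65, 9.90 and 9.39, and 10.39 and 9.52, with 40 µM replicate 2 below both controls. Psme2b, a close copy of Psme2, had the smallest p of the family, at 6.10 and 6.11 in control, 6.78 and 6.41 at 2.5 µM, and 7.03 and 7.26 at 40 µM. It was 2.06-fold above control at 40 µM, with a log2 change of 1.04, a standard error of 0.23 and a 95% confidence interval that starts at 0.49 (limma, unadjusted p = 0.00281, adjusted p = 0.334), and its highest array was 40 µM replicate 2. Its control level lay at the negative control medians (5.98 to 6.10), so the fold is between low values, and whether its probes also bind Psme2 was not tested. Psme3, the nuclear activator PA28 gamma, was at 15.63 and 15.46, 15.37 and 15.41, and 15.38 and 15.30, with all 4 treated arrays below both controls, at most 0.24 under the control mean (log2 change at 40 µM -0.20, standard error 0.16; limma, adjusted p = 0.592). Psme4 (PA200) had controls of 12.76 and 12.57 and differed from their mean by -0.67 and -0.08 at 2.5 µM and by -0.21 and -0.12 at 40 µM, and Psmf1, an inhibitor of the core, was 0.44 and 0.23 above control on the 40 µM arrays.

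The Psmg genes encode chaperones that build the alpha ring. Psmg2 lay at 10.55 and 10.60 in control, 11.83 and 10.96 at 2.5 µM, and 11.63 and 10.70 at 40 µM, and Psmg1 at 9.68 and 9.63, 10.05 and 10.14, and 9.80 and 10.01. For both, all 4 treated arrays were above both controls and the lower dose had the higher mean, with changes of 0.82 and 0.44 at 2.5 µM (standard errors 0.38 and 0.19; limma, adjusted p = 0.540 and 0.523). The dose difference of each was within its error (40 µM minus 2.5 µM -0.23 with a standard error of 0.38 and -0.19 with 0.19). Psmg3 lay between 4.76 and 6.13 on the 6 arrays, and Psmg4 at 5.37 and 5.75, 6.98 and 5.93, and 6.96 and 5.56, both near the negative control medians. Psmc3ip, a cofactor of meiotic recombination, was 0.55 and 0.18 above control on the 40 µM arrays, and Psme3ip1, a partner of PA28 gamma, 0.05 and 0.19.

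Among 38 other genes of the proteasome and ubiquitin pathway, 29 were measured and 18 of these had a mean of at least 9.94. Their median difference was -0.03 on 40 µM replicate 1 and 0.09 on 2.5 µM replicate 1, and -0.02 and -0.08 on the replicate 2 arrays, so the list's median stayed near 0 on every array. At an unadjusted p under 0.05 for 40 µM against control, 0 of the 29 were higher (5.18% of all genes) and 0 lower (6.86%). For 2.5 µM against control 0 were higher (4.24% of all genes) and 1 lower (5.38%), and for 40 µM against 2.5 µM 1 was higher (2.34%) and 0 lower (3.28%). Both of these were Sem1, the smallest subunit of the lid, at 15.67 and 15.84 in control, 15.19 and 14.68 at 2.5 µM, and 15.64 and 15.43 at 40 µM (log2 change -0.82 at 2.5 µM, standard error 0.21; limma, adjusted p = 0.479). On 40 µM replicate 1, 6 of the 29 were at least 0.5 above control (18.7% of all genes) and 5 at least 0.5 below it (18.5% of all genes). The lower ones were the shuttle factor Rad23b (-0.86), the p97 cofactor Nploc4 (-0.76), the ubiquitin ligase Ube3c (-0.66), Psmb8 (-0.62) and Psmb10 (-0.58). The higher ones included Pomp, the maturation chaperone of the core (1.56, and -0.26 on replicate 2), Uchl5, a deubiquitinase of the cap (1.81 and -0.27), and Txnl1, a thioredoxin-like protein that binds the cap (1.49 and 0.06). Nfe2l1 lay at 16.66 and 16.61 in control, 16.35 and 16.56 at 2.5 µM, and 16.26 and 16.70 at 40 µM, and Nfe2l2 (NRF2) at 8.84 and 9.11, 8.68 and 8.35, and 8.84 and 8.72. The inducible subunits Psmb8, Psmb9 and Psmb10, which replace the catalytic beta subunits after interferon, lay below the negative control medians on all arrays. Adrm1 has no probe set under its name in the annotation used and was not analysed here.

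The same medians were taken for the genes of 2 other large complexes. The 7 measured subunits of the TRiC chaperonin had medians of 1.18 and 0.48 on the low-control arrays at 40 µM and 2.5 µM and -0.085 and 0.20 on the replicate 2 arrays, and 55 cytosolic ribosomal protein genes had 0.82 and 0.59, and -0.135 and -0.32. On 2.5 µM replicate 2 only 8 of the 55 ribosomal genes were above control, where 29 of the 47 proteasome genes and 9887 of all 19505 genes were. Against these lists the core medians on the low-control arrays (1.82 and 1.07) were higher and the cap medians (0.58 and 0.30) lower at both doses. The medians of all 47 proteasome genes (0.97 and 0.54) were below TRiC and above the ribosomal genes at 40 µM, and above TRiC and below the ribosomal genes at 2.5 µM. Differences between these lists were not tested.

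Promoters show what the genes of each part share in sequence. RefSeq promoters (250 bases before to 50 after the start site, GRCm38.p6) matched 39 of the 47 genes, and Psma8, Psmb1, Psmb2, Psmb7, Psmc3, Psmd3, Psmd7 and Psmg2 had no entry. They were searched on both strands for CCAAT, the box bound by NF-Y, for CCGGAAG, a core bound by ETS factors, and for TGACNNNGC, the core of the antioxidant response element that NRF1 and NRF2 bind. CCAAT was in 7 of 11 core genes (63.6%) and 5 of 17 cap genes (29.4%), and in 41.1% of all 27025 genes with a promoter. CCGGAAG was in 1 of 11 core genes (9.09%) and 9 of 17 cap genes (52.9%), and in 9.93% of all genes. TGACNNNGC was in 5 of 39 (12.8%) and in 3781 of all 27025 genes. A match is a description of letters and not a bound site.

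Psma3 and Psmb6 are printed as core genes and Psmd6 and Psmd11 as lid genes that share the ETS letters but differed on 40 µM replicate 1. All are 300 bases of GRCm38.p6 and read 5′ to 3′ along the gene, with the matches in capitals. Psma3 (chr12:70974373-70974672, plus strand) holds CCAAT letters at -139, 14 and 31 from the start site, the middle one on the other strand. Psmb6 (chr11:70525107-70525406, plus strand) holds a TGACNNNGC match at -9. Psmd6 (chr14:14120896-14121195, minus strand) holds CCGGAAG at -45, and Psmd11 (chr11:80428365-80428664, plus strand) holds it on the other strand at -11. None of the matches in these 4 overlap.
Psma3: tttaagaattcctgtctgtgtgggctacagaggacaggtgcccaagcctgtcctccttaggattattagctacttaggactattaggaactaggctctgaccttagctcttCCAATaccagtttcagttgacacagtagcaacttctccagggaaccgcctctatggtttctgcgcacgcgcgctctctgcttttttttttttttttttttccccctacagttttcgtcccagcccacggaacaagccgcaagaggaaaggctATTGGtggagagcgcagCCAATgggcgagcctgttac
Psmb6: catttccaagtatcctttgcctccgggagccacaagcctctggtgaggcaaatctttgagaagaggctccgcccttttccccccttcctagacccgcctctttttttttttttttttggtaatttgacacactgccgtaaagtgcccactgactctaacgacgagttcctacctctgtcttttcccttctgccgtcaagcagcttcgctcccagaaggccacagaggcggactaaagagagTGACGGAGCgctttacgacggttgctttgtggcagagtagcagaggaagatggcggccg
Psmd6: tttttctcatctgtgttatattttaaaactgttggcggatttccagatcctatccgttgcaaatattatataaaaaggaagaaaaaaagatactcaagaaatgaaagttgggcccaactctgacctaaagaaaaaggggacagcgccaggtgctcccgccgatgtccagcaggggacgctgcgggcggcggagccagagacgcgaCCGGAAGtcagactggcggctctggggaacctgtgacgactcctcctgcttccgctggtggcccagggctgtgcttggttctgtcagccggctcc
Psmd11: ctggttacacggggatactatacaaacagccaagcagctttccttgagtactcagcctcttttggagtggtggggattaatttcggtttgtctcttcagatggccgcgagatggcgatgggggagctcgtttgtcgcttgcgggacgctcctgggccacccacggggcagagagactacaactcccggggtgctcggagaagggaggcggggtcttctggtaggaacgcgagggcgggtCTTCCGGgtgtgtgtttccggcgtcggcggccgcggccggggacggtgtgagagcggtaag

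Within a part, genes with and without these letters had overlapping ranges on 40 µM replicate 1. The 9 cap genes with CCGGAAG lay between -0.41 (Psmd13) and 1.94 (Psmc6) with a median of 0.65, and the 8 without it between -0.32 (Psmd9) and 1.41 (Psmd10) with a median of 0.74. The 7 core genes with CCAAT lay between -0.11 (Psmb11) and 2.71 (Psma3) with a median of 1.85, and the 4 without it between 1.18 (Psmb6) and 1.82 (Psma4) with a median of 1.56. Psmb11 lay below the negative control medians. The core genes without a promoter entry are in neither group, namely Psmb2 (2.64 on that array), Psmb1 (2.43), Psmb7 (2.0) and Psma8 (-0.5). Psmd6 and Psmd11, with the same letters, were 1.88 and 0.05 above control on that array.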

How the data were processed

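Per the submitters' processing notes, the deposited log2 values were made with RMA, which corrects background, quantile-normalizes arrays and summarises probes. The same notes list Transcriptome Analysis Console and Affymetrix Expression Console (no versions named). The deposited log2 values reach 19.88, above what a plain scanner scale allows. The step behind this is not given in the sources used here. Folds are on that scale. The genome build was not given in the sources used here.

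Of 28846 features 6640 were controls. Of 22206 clusters 19572 had 1 gene symbol in the platform annotation, 2634 had none and were left out, and 0 had several. For a gene with several clusters the one with the highest mean was used, giving 19505 genes with no filter on level. Between 3939 and 4566 genes per array lay above the 95th percentile of 5222 negative controls. Arrays give no read depth, and their number limits precision.

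Group means over all 6 arrays were fitted with limma 3.58.1 in R 4.3.3 (no covariates, variance prior following the level, 3 residual degrees of freedom, prior worth 4.11), tested first on simulated data. Parts of the particle are described by counts and medians beside those of all genes, with no set test. Roles such as lid and base follow general knowledge. Named with values were, in each class, the 2 genes highest and 2 lowest at 40 µM against control, genes at an unadjusted p under 0.05, up to 6 with all treated arrays outside the controls, the catalytic subunits, genes near the negative control level, and 7 fixed pathway genes; others named were chosen after their values were seen. Genes, lists and tests were chosen with earlier results of these data known. Alternatives were other normalizations, filters, priors, weights and blocks, and leaving out arrays. 0 columns of another series were present.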

Additional observations from a re-analysis of the deposited data

How the results depend on the processing

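Counts of proteasome genes passing limma at an adjusted p under 0.05 stayed at 0 in all 3 comparisons under quantile normalization, median centring, both filters on level, mean of clusters, constant or robust prior, fits of 2 groups, array weights and both blocks. Leaving out 1 array gave 0 to 19 at 40 µM against control (19 without 40 µM replicate 2) and 0 in the other comparisons. Without both low-control arrays, with an error from the controls alone (1 residual degree of freedom), 9 passed for 40 µM against control, 10 for 2.5 µM against control and 8 for 40 µM against 2.5 µM, among 3749, 3991 and 2965 genes in all. In each comparison the share of the 47 genes was close to that of all 19505, so these counts do not set the proteasome genes apart. That fit has a single array in each treated group. At 40 µM against control the higher genes were Psme2b (log2 change 1.16), Psma8 (0.7), Psmd2 (0.43), Psmd3 (0.39), Psmg1 (0.36), Psmd4 (0.34) and Psmc3 (0.31). The lower ones were Psmd9 (-0.44) and Psma6 (-0.37). Psma8 lay below the negative control medians. The median over the 47 genes, 0.54 at 40 µM against control, was 0.00 without both low-control arrays, 0.19 with that split taken as a blocking term, and 0.00 to 0.97 when 1 array was left out. At 2.5 µM, 0.34 became -0.07 with the split blocked and 0.09 without both arrays. For 40 µM against 2.5 µM, 0.20 became 0.35 on the low-control arrays alone and -0.02 without them, and -0.23 to 0.44 when 1 array was left out. The median for 2.5 µM against control thus changed sign with the split blocked, and that for 40 µM against 2.5 µM without both arrays and without 40 µM replicate 1. The labels do not say whether equal replicate numbers mark a shared culture or day. Deviations of replicate 1 from its group correlated at 0.386 between the doses and at -0.005 and -0.012 with control. The replicate block left the medians at 0.54, 0.34 and 0.20. It could not move them, since every group holds both replicate numbers, so it does not show whether the arrays are paired. The means of 14 of the 47 genes lay below 9.94, where signal over background limits what can be read.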
